A study of Mus musculus with 24 samples.

Results

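The combined state, adipose tissue of LPCAT3 knockout mice fed omega-6 fat, was compared with wild-type tissue from mice fed saturated fat. Both factors differ between these groups, so the comparison asks which genes stood at the wild-type saturated-fat level once loss of LPCAT3 and omega-6 fat were combined, and which did not. Members were taken by genotype and diet label: 4 libraries of the knockout on the n6 diet (KO n6) and 4 of the wild type on the SFA diet (WT SFA), 8 of 24 libraries in the series. All came from inguinal white adipose tissue (iWAT) of male mice aged 18 to 22 weeks whose food supplied 60% of its calories as fat, enriched in omega-6 fatty acids (n6) or in saturated ones (SFA). The genotype is labelled KO, and AdL3KO in the design text; the promoter, Cre line or allele behind it is not given in the sources used here. The series title speaks of adipocytes, but the tissue is labelled iWAT and its protocol describes no step that isolates a cell type. WT n6 and KO SFA, 4 libraries each, are the intermediate groups through which WT SFA leads to KO n6. The labels do not say whether libraries of a group came from separate animals, so p-values measure the spread between libraries, which may be technical.

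LPCAT3 is an acyltransferase of the endoplasmic reticulum that places polyunsaturated fatty acids on lysophospholipids. SREBP transcription factors raise the genes of fatty acid and sterol synthesis, are held back by INSIG proteins and sterols, and in the case of SREBP-1 are restrained by dietary polyunsaturated fat. White fat makes fatty acids from glucose and acetate by this route, stores them as triglyceride and secretes adipokines such as leptin and adipsin.

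Libraries held 43.6 to 55.4 M estimated counts in these 8 and 43.6 to 62.1 M over the series (median 50.2 M), and 15259 of 35727 genes had enough counts to be tested. Log2 CPM correlated at 0.9888 to 0.9927 between WT SFA libraries and at 0.9868 to 0.989 between KO n6 libraries. Adipocyte markers were abundant in both groups, with a mean log2 CPM over 10 markers of 11.04 to 11.16 in WT SFA and 10.84 to 11 in KO n6. Of these 10 markers 3 were lower in KO n6 (30%, against 16.7% of all tested genes), Adipoq, Lep and Lipe, and none was higher. Lipe differed by -0.19 (adjusted p = 0.0479), a call lost without any 1 of replicates 1, 2 and 4 of WT SFA or of KO n6 (adjusted p = 0.0645 to 0.135) and without the 3 marker-high libraries described next (0.224). Libraries that stood apart by marker levels were WT SFA replicate 3 and KO n6 replicate 2, with mean log2 CPM over 10 B cell markers of 2.19 and 2.28 against at most 0.07 in the other 6, and KO n6 replicate 1, with 4.38 over 12 skeletal muscle markers against at most 1.32. Calls and counts that change without these 3 marker-high libraries are given both ways for the genes and groups described. Leaving them out keeps WT SFA replicates 1, 2 and 4 and KO n6 replicates 3 and 4 in the contrast. The part of this smaller number of libraries in lost calls was not tested. In bulk tissue, fewer cells of a type and less RNA per cell cannot be told apart.

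A gene was called different at an adjusted p under 0.05 (edgeR quasi-likelihood test, Benjamini-Hochberg over all tested genes), and every adjusted p below comes from that test unless TPM is named. CPM are counts scaled to library size and composition. Log2 fold changes are KO n6 minus WT SFA unless another pair is named, with a standard error (SE). Since a p over the threshold does not show that a level came back, a gene was counted as inside 1.5-fold only when the whole 95% interval of its log2 fold change lay within ±0.585. The diet step is the change from WT SFA to WT n6. A gene returned when its diet step was called and at least 1.5-fold, the genotype moved it the opposite way on n6, and KO n6 against WT SFA lay inside 1.5-fold. It overshot when KO n6 was called on the far side of WT SFA. WT n6 is shared by both steps, which favours opposite signs, so these counts describe the groups and carry no test.

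Lpcat3 itself was lower in KO n6 than in WT SFA, WT n6 or KO SFA. Its CPM were 97.8, 118, 129 and 123 in WT SFA and 50.05, 47.7, 49.1 and 49.2 in KO n6, with no overlap. The log2 fold change was -1.25 (SE 0.062, adjusted p = 3.48e-12), made up of -0.75 from WT SFA to WT n6 and -0.51 from WT n6 to KO n6. Both steps lowered it, so for Lpcat3 diet and genotype did not oppose each other. On log2(TPM + 1) of the deposited TPM the difference was -0.43 (limma, adjusted p = 0.000139), a smaller fall than in counts. The labels do not say which part of the gene is deleted, and its counts cover the whole gene. The other Lpcat genes of the phospholipid list were not called: Lpcat1 (0.09, adjusted p = 0.336), Lpcat2 (-0.27, adjusted p = 0.247) and Lpcat4 (0.20, adjusted p = 0.225).

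Across the genome most genes stood near the WT SFA level, and those called different in counts were split about evenly between rises and falls. Of 15259 genes, 4972 were called (32.6%), 2427 higher (15.9%) and 2545 lower (16.7%), and the 2 groups of libraries did not overlap for 4908 (32.2%). Only 368 differed at least 2-fold (2.41%), 207 higher and 161 lower. The interval lay inside 1.5-fold for 10975 (71.9%), 3275 of them called at a small size, and 2587 were neither called nor inside. By limma on deposited log2 TPM, 35.2% of called genes were higher, against 48.8% in counts. Without the 3 marker-high libraries 3213 genes were called, 1527 higher and 1686 lower. For comparison, the diet step in wild type called 3776 genes (24.7%), the genotype step on SFA 6086 (39.9%), the genotype step on n6 6571 (43.1%) and the diet step in the knockout 3474 (22.8%). These contrasts share groups with each other.

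**Figure D1:**
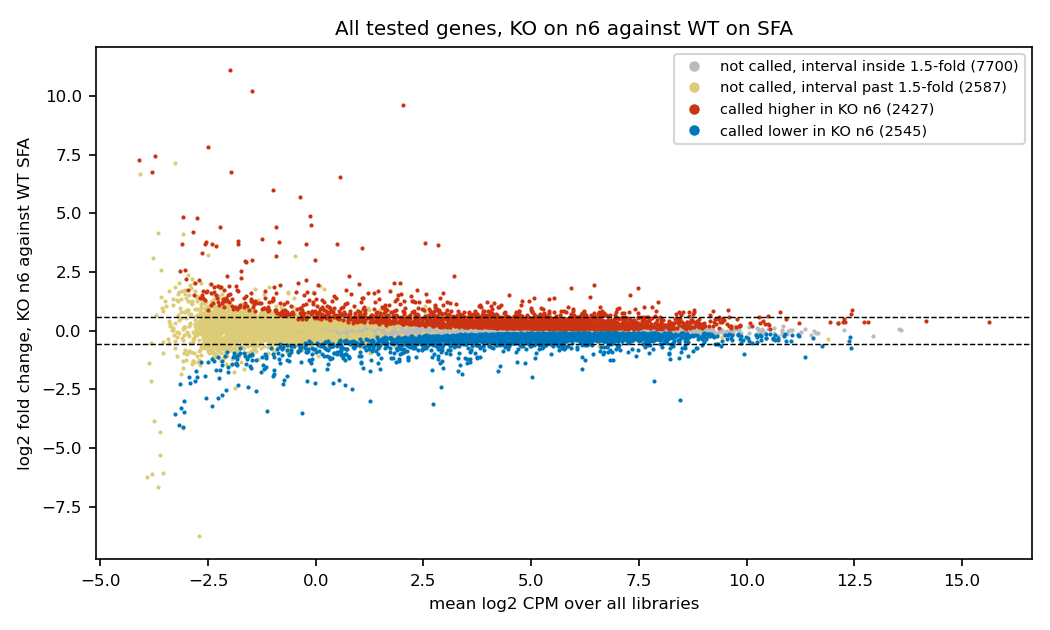
Log2 fold change of KO n6 against WT SFA (y axis) by mean log2 CPM over all libraries (x axis), 1 point a gene, with dashed lines at 1.5-fold. The 7700 genes in grey were not called and lay inside 1.5-fold, 2427 in red were higher, 2545 in blue lower, and 2587 in sand were not called with an interval reaching past 1.5-fold.

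Most of the genes furthest above the WT SFA level were higher in KO SFA too. They are taken from genes with a mean of at least 1 log2 CPM whose libraries do not overlap between the groups. Tmem56, a membrane protein gene, had CPM of 0.775, 1.92, 1.94 and 1.18 in WT SFA and 19.1, 15.9, 20.6 and 21.6 in KO n6, and all KO n6 libraries were higher (log2 fold change 3.73, SE 0.325, adjusted p = 4.82e-08). Its KO SFA mean was 37.4 ± 11.7 CPM and its WT n6 mean 0.559 ± 0.358, and n6 fat lowered it in the knockout (-0.95, adjusted p = 0.0109) without bringing it back. Prune2 went from 45.1 ± 12.2 to 175 ± 11.5 CPM (1.96, adjusted p = 6.34e-09) and Hebp2, a heme-binding protein gene, from 3.89 ± 0.802 to 19.6 ± 4.14 (2.34, adjusted p = 3.49e-08). Chchd10, of the mitochondrial intermembrane space, rose by 1.81, Egln3, an oxygen-sensing prolyl hydroxylase, by 1.72, Hapln4 by 2.03 and Nabp1, a single-strand DNA binding gene, by 1.81. Slc15a2, a peptide transporter, rose by 1.60 (adjusted p = 0.000371), although neither the diet step in wild type (0.35, adjusted p = 0.433) nor the genotype step on SFA (0.23, adjusted p = 0.596) was called. Gfra1, a GDNF co-receptor, rose by 1.71 (SE 0.189). Xirp2, a muscle gene, rose by 3.54 (adjusted p = 1.49e-05), with 15.3, 2.26, 5.94 and 5.11 CPM in KO n6, where replicate 1 is the library high in muscle markers. Without that library it rose by 2.84 (adjusted p = 2.31e-05), and on log2(TPM + 1) by 0.79.

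The furthest falls named here were likewise all lower in KO SFA than in WT SFA. Saa3, an acute-phase apolipoprotein, had CPM of 17.8, 19.5, 17.5 and 23.8 in WT SFA, 49.2, 50.1, 50.8 and 24.1 in WT n6 and 2.87, 2.19, 1.77 and 2.27 in KO n6. KO n6 libraries lay below every wild-type library, and the gene overshot: n6 fat raised it by 1.15 in wild type, and KO n6 ended at -3.11 against WT SFA (SE 0.23, adjusted p = 3.99e-09). Cfd (adipsin) had 1291, 1203, 853 and 1118 CPM in WT SFA and 125, 133, 179 and 131 in KO n6, a log2 fold change of -2.97 (SE 0.236, adjusted p = 1.47e-08), with no called change on the diet step (-0.19, adjusted p = 0.563). Folh1 (glutamate carboxypeptidase II) was raised by the diet step (0.79) and lay at -2.41 in KO n6 (adjusted p = 1.11e-08). Nnat (neuronatin) fell by 2.14, from 595 ± 86.2 to 135 ± 20.9 CPM, and in KO SFA it was lower still at 58 ± 50.4. Itgad, an integrin of macrophages, fell by 1.97, Cyp2f2 by 2.98, Wfdc21 by 1.70 and Slc5a7, the choline transporter, by 1.65. Plppr4 (-1.73) and Plppr3 (-1.70), lipid phosphatase-related membrane proteins, were lower together.

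**Figure D2:**
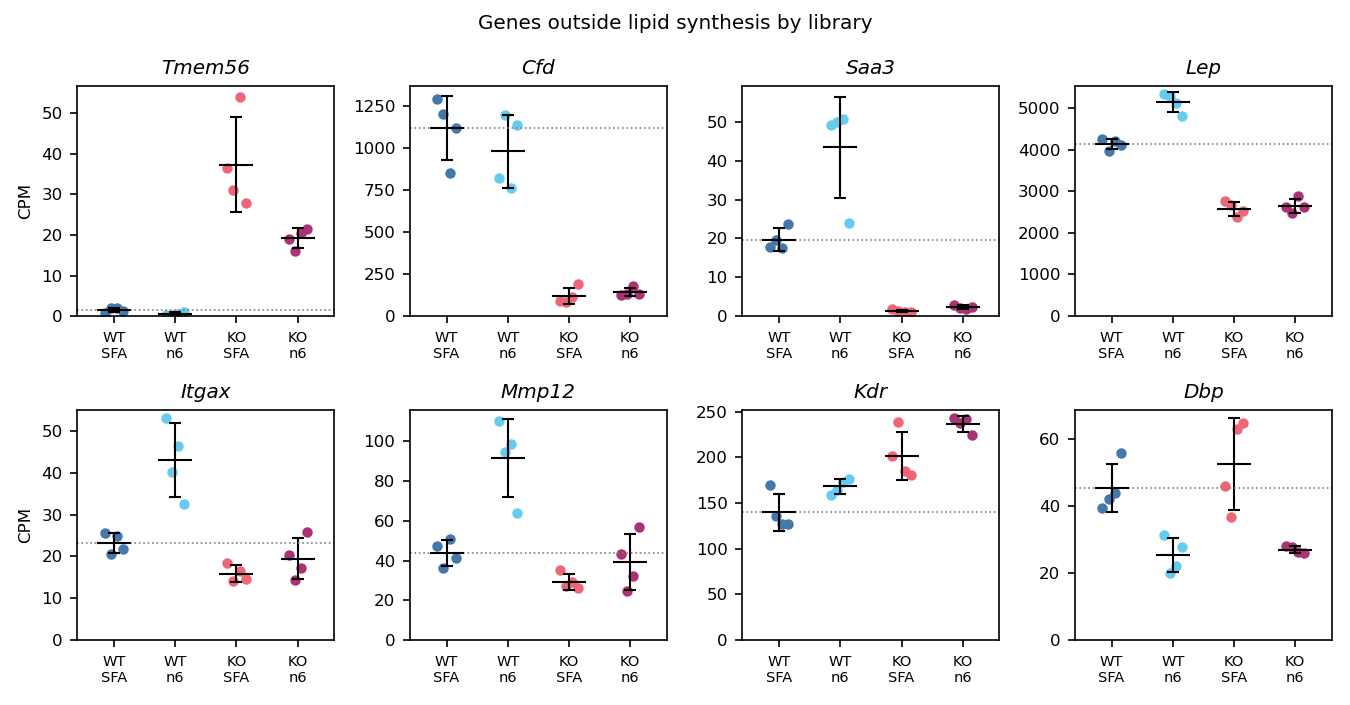
CPM by library (y axis, linear from 0) for genes outside lipid synthesis in WT SFA, WT n6, KO SFA and KO n6, with mean and SD (n = 4) as bars and the WT SFA mean as a dotted line. Tmem56 and Kdr in KO n6 lie above every WT SFA library and Cfd, Saa3, Lep and Dbp below, while Itgax and Mmp12 overlap WT SFA.

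Most genes of fatty acid synthesis were higher in KO n6 than in WT SFA, some by little. Of 18 de novo lipogenesis genes 14 were higher and none lower (15.9% of all tested genes were higher), and 10 lay inside 1.5-fold (55.6%, against 71.9% of all), with a median log2 fold change of 0.40 against 0.01 over all tested genes. The same genes had medians of -0.71 on the diet step in wild type, where 16 fell (13.1% of all tested genes did), and 1.09 on the genotype step on SFA. Fasn, fatty acid synthase, had CPM of 3571, 4052, 4769 and 4384 in WT SFA, 2138, 2131, 2202 and 2305 in WT n6, 10940, 9944, 12260 and 11380 in KO SFA and 7760, 7944, 7839 and 7176 in KO n6. The 4 groups did not overlap, and KO n6 sat between WT SFA and KO SFA (log2 fold change 0.87, SE 0.073, adjusted p = 8.68e-09). Acacb, the acetyl-CoA carboxylase on mitochondria, had 174, 157, 182 and 154 CPM in WT SFA and 393, 379, 425 and 361 in KO n6, the largest log2 fold change of the list at 1.22 (SE 0.082, adjusted p = 5.41e-10). Its cytosolic paralog Acaca rose by 0.86, the citrate carrier Slc25a1 by 0.87, malic enzyme Me1 by 0.80 and ATP citrate lyase Acly by 0.66. These 6 genes all overshot. Acss2, which makes acetyl-CoA from acetate, took the largest diet step of the list, from 363 ± 53.1 to 117 ± 6.38 CPM, and stood at 604 ± 40.9 in KO n6 (0.73, SE 0.079, adjusted p = 3.13e-07).

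Of the lipogenesis list, Scd1, Elovl6 and Scd2, which desaturate or elongate the finished chain, ended nearer to WT SFA than those 7. Scd1, the stearoyl-CoA desaturase, had CPM of 51890, 54560, 50190 and 54370 in WT SFA, 18600, 24600, 18300 and 21030 in WT n6 and 67700, 71920, 64990 and 66800 in KO n6. KO n6 libraries were all higher than WT SFA, yet the interval stayed inside 1.5-fold (log2 fold change 0.36, interval 0.20 to 0.52, adjusted p = 0.000907), so Scd1 counts as returned and, at that size, as overshot. Elovl6, which elongates palmitate, had 55.1, 67.8, 66.5 and 59.9 CPM in WT SFA and 81.5, 87.5, 85.7 and 81.1 in KO n6 and was placed the same way (0.43, interval 0.29 to 0.57, adjusted p = 3.96e-05). For Scd2, at 0.50, the interval reached past that bound (0.37 to 0.64). The transcription factor gene Srebf1 had CPM of 237, 276, 273 and 297 in WT SFA and 289.5, 284, 317 and 312 in KO n6, with overlap. It was not called (0.15, interval 0.01 to 0.30, adjusted p = 0.0952), although its diet step was -0.53 (adjusted p = 1.37e-05). On TPM it was called higher (0.19, adjusted p = 0.0307), and also in counts without WT SFA replicate 4 (0.20, adjusted p = 0.0431). Mlxipl, which encodes ChREBP (0.05, adjusted p = 0.767), Thrsp (0.10, adjusted p = 0.57) and acetoacetyl-CoA synthetase Aacs (0.11, adjusted p = 0.376) lay inside 1.5-fold and were not called, and Aacs returned from a diet step of -0.65. Gpam was called higher only just (0.13, adjusted p = 0.046). Its adjusted p was 0.0522 to 0.168 with any 1 of WT SFA replicates 1 and 2, KO n6 replicates 1 to 3, WT n6 replicates 2 and 3 or KO SFA replicate 4 left out, and 0.223 without the 3 marker-high libraries.

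**Figure D3:**
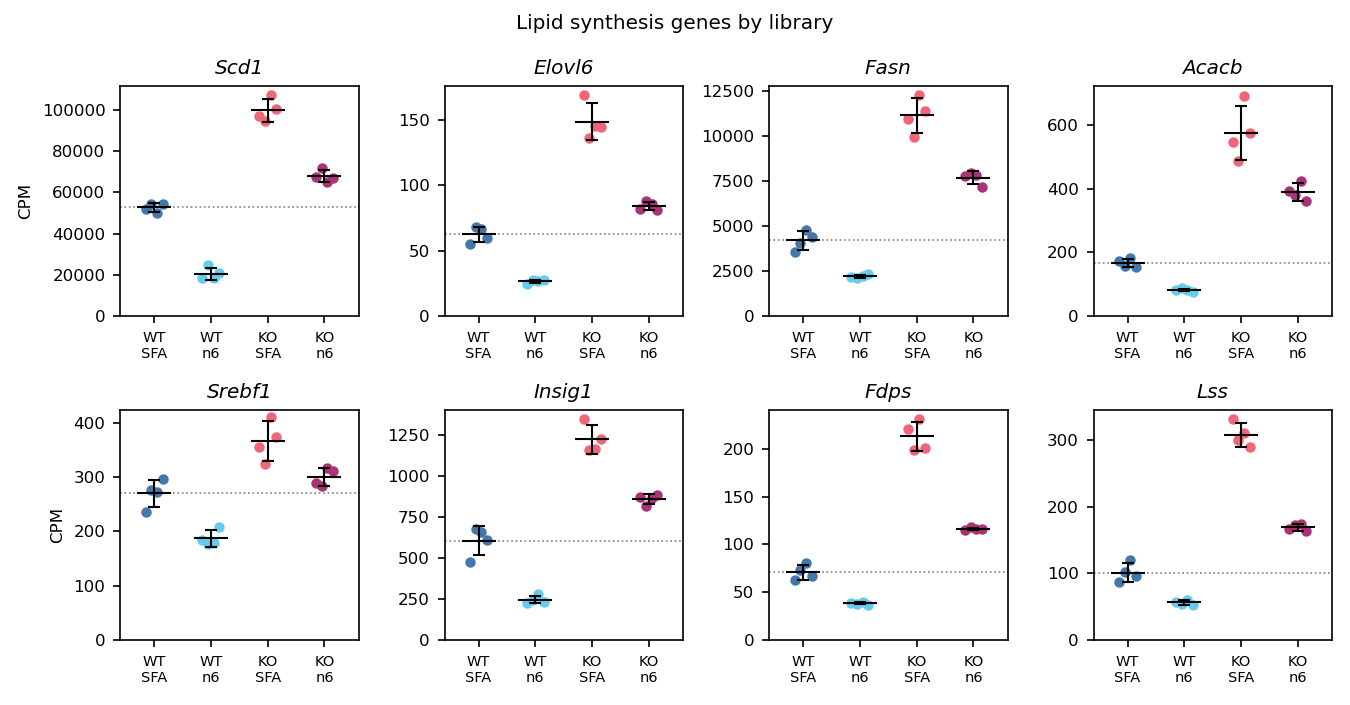
CPM by library (y axis, linear from 0) for 8 lipid synthesis genes in WT SFA, WT n6, KO SFA and KO n6, with mean and SD (n = 4) as bars and the WT SFA mean as a dotted line. In KO n6 Fasn, Acacb, Insig1, Fdps, Scd1, Elovl6 and Lss lie above every WT SFA library, and Srebf1 overlaps WT SFA. Log2 fold changes between the groups are 0.50 to 1.22 for Fasn, Acacb, Insig1 and Fdps. They are 0.36 for Scd1, 0.43 for Elovl6 and 0.74 for Lss.

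Promoters are shown for 5 genes that fell on the diet step, rose by genotype and ended above WT SFA. In 3 the interval reached past 1.5-fold (Fasn, Acss2, Insig1) and in 2 it stayed inside, so that they count as returned as well (Elovl6, Idi1). Each is the stretch of 250 bases before the gene start from RefSeq (GRCm38.p6), written 5′ to 3′ on the strand of the gene, with matches to CCAAT or ATTGG (the NF-Y box on either strand) and to CACGTG (an E-box) in capitals. The third motif searched, TCACNCCAC or GTGGNGTGA (the sterol regulatory element on either strand), has no match in these 5 windows. The motifs do not overlap each other in these windows, but the 2 strands of the NF-Y box run together in Fasn.
Fasn, minus strand, chr11:120824548-120824797: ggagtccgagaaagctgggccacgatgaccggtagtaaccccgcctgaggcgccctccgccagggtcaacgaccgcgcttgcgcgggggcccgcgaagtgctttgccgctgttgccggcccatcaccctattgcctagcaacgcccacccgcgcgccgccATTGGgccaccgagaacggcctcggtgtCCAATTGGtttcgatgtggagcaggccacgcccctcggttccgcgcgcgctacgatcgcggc
Acss2, plus strand, chr2:155517793-155518042: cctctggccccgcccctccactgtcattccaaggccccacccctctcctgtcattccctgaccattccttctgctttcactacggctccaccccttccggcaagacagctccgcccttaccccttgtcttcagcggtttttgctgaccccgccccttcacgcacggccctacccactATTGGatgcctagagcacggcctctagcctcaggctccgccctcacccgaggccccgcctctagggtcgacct
Insig1, plus strand, chr5:28071162-28071411: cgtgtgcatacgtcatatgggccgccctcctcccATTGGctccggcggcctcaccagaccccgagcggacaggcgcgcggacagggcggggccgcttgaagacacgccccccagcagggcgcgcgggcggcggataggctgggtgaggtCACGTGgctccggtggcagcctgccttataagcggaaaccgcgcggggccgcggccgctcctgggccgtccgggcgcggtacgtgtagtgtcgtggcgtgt
Elovl6, plus strand, chr3:129532136-129532385: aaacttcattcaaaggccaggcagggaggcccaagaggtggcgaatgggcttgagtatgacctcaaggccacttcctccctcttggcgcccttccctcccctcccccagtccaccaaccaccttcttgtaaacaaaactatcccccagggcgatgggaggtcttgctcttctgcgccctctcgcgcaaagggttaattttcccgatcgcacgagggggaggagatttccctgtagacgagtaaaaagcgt
Idi1, plus strand, chr13:8885356-8885605: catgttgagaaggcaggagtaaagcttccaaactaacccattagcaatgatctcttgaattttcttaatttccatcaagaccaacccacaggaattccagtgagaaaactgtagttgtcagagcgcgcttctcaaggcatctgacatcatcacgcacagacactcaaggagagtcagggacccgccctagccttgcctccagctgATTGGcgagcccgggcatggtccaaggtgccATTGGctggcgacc

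An NF-Y box was found in 8 of 16 lipogenesis promoters (50%) and in 14 of 16 cholesterol promoters (87.5%), against 36.2% of 11329 tested genes with a promoter in the table. It was in 37.5% of 88 promoters of returned genes and in 43.6% of 140 of overshot genes, classes that share some genes. The E-box was in 7.97% of all these promoters, 5.68% of returned and 7.86% of overshot genes, and the sterol element in 0.918%, 1.14% and 0.714%. A match is a description of the letters and not a bound site, and Fasn, with 3 NF-Y matches, and Elovl6, with none, both moved with the same signs on every step.

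Cholesterol genes were mostly higher in KO n6 as well, with exceptions. Of 24 genes 17 were higher (70.8%, against 15.9% of all tested genes), 3 lower and 13 inside 1.5-fold (54.2%, against 71.9%), with a median of 0.38, a median on the diet step of -0.63 and on the genotype step on SFA of 0.88. Fdps, which makes farnesyl diphosphate, had CPM of 62.5, 72.9, 80.8 and 66.7 in WT SFA and 116, 118, 116 and 116 in KO n6, all 4 of them above WT SFA (0.72, SE 0.065, adjusted p = 2.53e-08). Mvd rose by 0.79, Lss by 0.74 and Sqle, the squalene epoxidase, by 0.67, and all overshot. Idi1 (0.42, interval 0.28 to 0.55) was called higher inside 1.5-fold and returned by both routes, through WT n6 and through KO SFA. Members that fell included the isomerase Ebp at -0.26 (adjusted p = 0.000547) and Srebf2 at -0.14 (adjusted p = 0.0212). The call of Srebf2 was lost without WT SFA replicate 2 (adjusted p = 0.0581) without KO n6 replicate 4 (adjusted p = 0.0932) and without the 3 marker-high libraries (adjusted p = 0.0546).

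Insig1, which retains SREBP in the endoplasmic reticulum and is itself an SREBP target, followed the synthetic genes. Its CPM were 479, 679, 659 and 614 in WT SFA, 228, 244, 281 and 235 in WT n6 and 876, 818, 867 and 883 in KO n6, and KO n6 overshot (0.50, SE 0.085, adjusted p = 9.04e-05). The other regulators were mostly near WT SFA. Of 15 SREBP and LXR genes 3 were higher and 1 lower (20% and 6.67%, against 15.9% and 16.7% of all tested genes). Of the 15, 13 lay inside 1.5-fold (86.7%, against 71.9% of all tested genes), and the median was 0.00 (-0.04 in TPM). Nr1h3, the LXR alpha gene (-0.01, interval -0.11 to 0.08), and the cholesterol exporter Abca1 (0.00, interval -0.08 to 0.09) did so with narrow intervals. Mylip, a ubiquitin ligase and an LXR target, was raised by n6 in wild type (0.33) and by genotype on n6 (0.34), and stood at 0.67 in KO n6 (adjusted p = 4.91e-06).

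Enzymes that extend polyunsaturated fatty acids were divided. Of 12 tested genes 5 were higher (41.7%, against 15.9% of all tested genes), 2 lower (16.7%, the same share as over all) and 6 inside 1.5-fold (50%, against 71.9%). Hsd17b12 (0.78) and Tecr (0.56), which complete the elongation cycle, overshot. The desaturase genes went apart, although they lie next to each other in the genome: Fads1, the delta-5 desaturase, had 56.5, 49.1, 46.3 and 44.6 CPM in WT SFA and 29.1, 29.9, 32.9 and 29.7 in KO n6, and Fads2, the delta-6 desaturase, 12.5, 11.5, 11.3 and 10.5 and 17.2, 15.8, 14.9 and 16.6. Neither pair of groups overlapped, and Fads1 fell by 0.69 (adjusted p = 1.26e-06) while Fads2 rose by 0.49 (adjusted p = 0.000212). For Fads1 both the diet step (-0.28) and the genotype step on n6 (-0.41) were downward. Elovl5 rose by 0.32 with no called diet step (-0.05, adjusted p = 0.495).

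Triglyceride genes included 3 that overshot and 1 that returned. In this list 7 of 20 were higher (35%, against 15.9% of all tested genes), 3 lower (15%, against 16.7%) and 14 inside 1.5-fold (70%, against 71.9%, near the share of all genes), with a median of 0.02 (-0.03 in TPM). Agpat2, which makes phosphatidic acid, overshot (0.57, adjusted p = 4.64e-06), as did the droplet proteins Plin5 (0.74) and Cidea (1.04). Cidea had 9.11, 14.3, 14.8 and 16.2 CPM in WT SFA, 3.58, 4.28, 3.702 and 7.78 in WT n6 and 25.8, 29.8, 29.5 and 26.5 in KO n6, with KO n6 above both wild-type groups and overlapping KO SFA (27.9 ± 4.21). Plin2 rose by 0.50 and Dgat1 by 0.27, the latter inside 1.5-fold. Gpat3, a glycerol phosphate acyltransferase of fat cells, returned: 103 ± 13.6 CPM in WT SFA, 62.5 ± 4.305 in WT n6 and 109 ± 13 in KO n6 (SD, n = 4; 0.08, interval -0.11 to 0.26). Mogat1 kept its diet level, at -0.64 in WT n6 and -0.64 in KO n6 (adjusted p = 0.000788), with no genotype step on n6 (0.00, adjusted p = 1).

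Of 25 phospholipid genes, including Lpcat3, 5 were higher (20%), 5 lower (20%) and 20 inside 1.5-fold (80%), near the shares over all tested genes of 15.9%, 16.7% and 71.9% (median 0.02, and 0.00 in TPM). Pla2g15, a lysosomal phospholipase, had 49.2, 48.1, 52.4 and 49.1 CPM in WT SFA and 35.2, 32.1, 29.97 and 33.3 in KO n6, with no overlap (-0.61, adjusted p = 1.21e-06). Lpgat1, a lysophospholipid acyltransferase, was lower at -0.33 (adjusted p = 0.000571) although the genotype step on SFA was -0.02 (adjusted p = 0.888). Mboat2, another one, was higher at 0.48 (adjusted p = 0.0065). Pcyt2, of the phosphatidylethanolamine branch, was higher inside 1.5-fold (0.27, adjusted p = 0.000223).

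**Figure D4:**
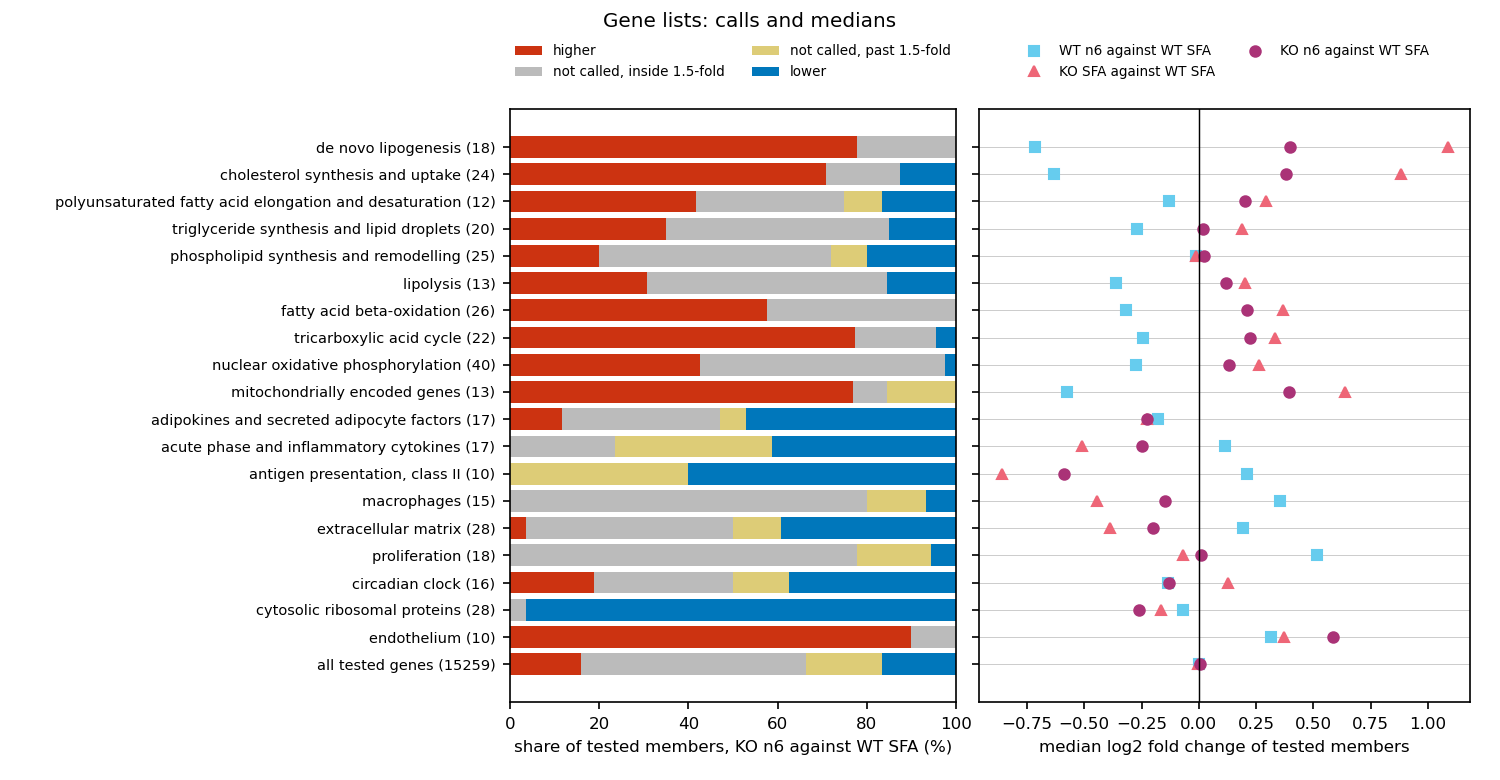
Left, share of tested members of each gene list (%, number tested in brackets) that were higher, lower or not called in KO n6 against WT SFA; right, median log2 fold change of the same members for WT n6, KO SFA and KO n6, each against WT SFA. Lipogenesis and cholesterol medians lie at -0.71 and -0.63 in WT n6, 1.09 and 0.88 in KO SFA and 0.40 and 0.38 in KO n6, all tested genes near 0.

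Genes that n6 fat changed in wild type mostly moved back with loss of LPCAT3, and then split between return and overshoot. The diet step was called and at least 1.5-fold for 553 genes, 332 up and 221 down. The genotype on n6 moved 435 of them the opposite way, 3 the same way, and was not called for 115. In KO n6 130 returned (72 had risen and 58 had fallen on the diet step) and 205 overshot (74 and 131), 19 of which did both. For 118 the genotype was opposite but KO n6 was neither called nor inside 1.5-fold. In the diet direction 55 were still called, 3 of which also count as returned. In 4 of the 55 the genotype was opposite as well, a partial return, and these included Axin2 (-0.29, adjusted p = 0.0432), Tfr2 (-0.33, adjusted p = 0.0198) and Adgrg6 (0.33, adjusted p = 0.0367). The calls of Axin2, Tfr2 and Adgrg6 each came and went with single libraries: Axin2 was lost without any 1 of the KO n6 replicates, Tfr2 without KO n6 replicate 1 or 2 or WT SFA replicate 4, and Adgrg6 without KO n6 replicates 2, 3 or 4, and both Axin2 and Adgrg6 without WT SFA replicate 2 or 4 (adjusted p = 0.0503 to 0.152 over these). Without the 3 marker-high libraries all 3 calls were lost (adjusted p = 0.218 for Axin2, 0.177 for Tfr2 and 0.0594 for Adgrg6). On log2(TPM + 1) Axin2 (-0.07, limma, adjusted p = 0.735) and Adgrg6 (0.265, adjusted p = 0.0742) were not called. Tfr2 was (-0.39, adjusted p = 0.00967). With only KO n6 and WT SFA in the fit to counts, Adgrg6 was not called either (adjusted p = 0.102). Returned genes numbered 86 without WT SFA replicate 2 and 217 without WT n6 replicate 4, and partly returned ones 1 to 10 when single libraries were left out. The partial return counts were 10 without WT SFA replicate 1 or WT n6 replicate 4, 2 without WT SFA replicate 2, KO n6 replicate 1 or WT n6 replicate 1, and 1 without WT SFA replicate 4 or KO n6 replicate 2.

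The same question can be put through the other intermediate group. Genotype on SFA changed 1302 genes at least 1.5-fold, and n6 fat moved 492 of them back in the knockout. Here 206 returned, 339 were brought part of the way and were still called, and 1 overshot. Of the 339, 121 lay inside 1.5-fold and so count among the 206 as well. Through both routes 31 genes returned, among them Scd1, Elovl6, Idi1, Rbp4, Tlcd2, H2-Q10, Itgb2, Itgam, Gpr35, Alkal2 and Rasl12. That number was 48 without WT SFA replicate 1, 47 without WT n6 replicate 4, 19 without KO n6 replicate 1, and 6 without the 3 marker-high libraries. H2-Q10, a class I histocompatibility gene, took the largest diet step among them, with 49.9, 60.2, 64.2 and 54.4 CPM in WT SFA, 15.1, 16.3, 13.7 and 22.5 in WT n6 and 73.7, 72.8, 72.3 and 63.3 in KO n6. KO n6 overlapped WT SFA (0.30, interval 0.06 to 0.55, adjusted p = 0.0547), just over the threshold, and was called without WT SFA replicate 3 (adjusted p = 0.0365), KO n6 replicate 4 (0.0425), WT n6 replicate 3 (0.0445) or WT n6 replicate 4 (0.0179). Its close paralogs may share reads with it, so its level is uncertain. Tlcd2, which affects membrane lipid composition, had means of 16.96 ± 1.89 CPM in WT SFA, 9.94 ± 0.658 in WT n6, 73.4 ± 14.4 in KO SFA and 17.6 ± 1.63 in KO n6. Rbp4, the retinol carrier, had 208, 278, 255 and 289 CPM in WT SFA and 327, 348, 351 and 321 in KO n6, without overlap (0.39, adjusted p = 0.000738). Like Scd1 and Elovl6, Rbp4 therefore counts as returned and as overshot.

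**Figure D5:**
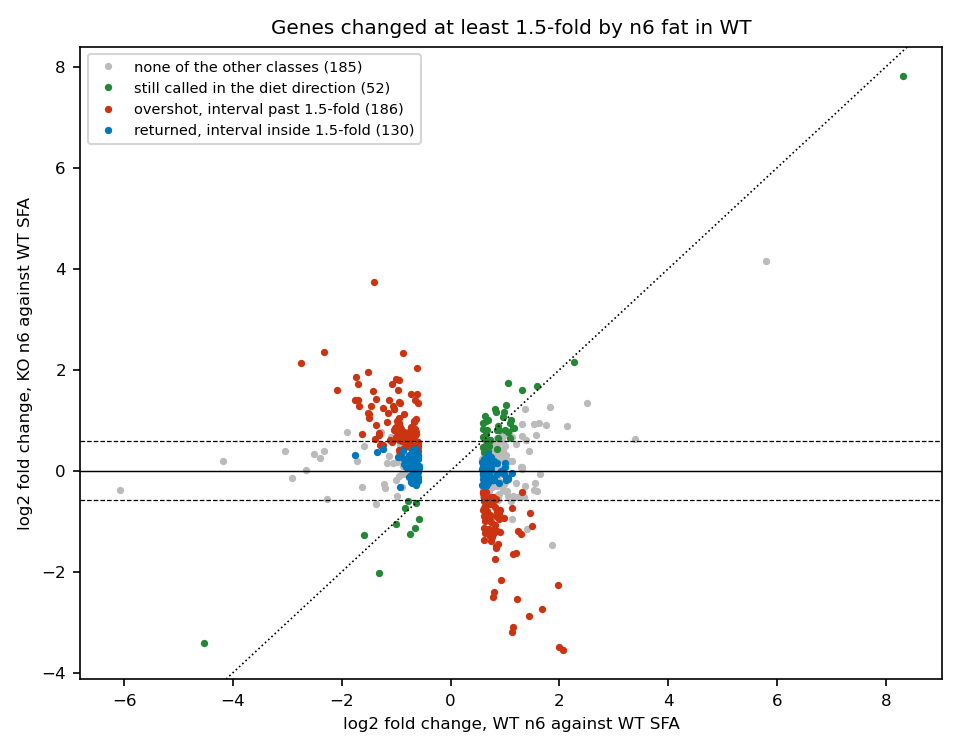
Log2 fold change of KO n6 against WT SFA (y axis) by that of WT n6 against WT SFA (x axis) for the 553 genes changed at least 1.5-fold by n6 fat in wild type, with dashed lines at 1.5-fold and a dotted line where the diet level is kept. Blue marks 130 returned genes, red 186 that overshot with an interval past 1.5-fold, green 52 still called in the diet direction without having returned, and grey the other 185.

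Most macrophage markers rose with n6 fat, and few differed between KO n6 and WT SFA. Of 15 macrophage markers 9 rose on the diet step (11.6% of all tested genes did; median 0.36) and 11 fell on the genotype step on SFA (19.9% of all did; median -0.45), while in KO n6 none was higher, 1 was lower and 12 lay inside 1.5-fold (80%, against 71.9% of all tested genes; median -0.15). By the rule that needs a diet step of 1.5-fold, 3 of the 15 returned. Itgax, the integrin CD11c, had CPM of 25.6, 20.6, 24.8 and 21.7 in WT SFA, 53.1, 40.2, 46.5 and 32.6 in WT n6 and 20.4, 14.4, 17.3 and 25.9 in KO n6. KO n6 overlapped WT SFA and lay below all WT n6 libraries (-0.25, interval -0.55 to 0.06, adjusted p = 0.207), but the difference moved with single libraries. Without KO n6 replicate 4 it was called lower than WT SFA (-0.42, adjusted p = 0.0282), without KO n6 replicate 2 it was -0.13 (adjusted p = 0.537), and without the 3 marker-high libraries -0.07 (adjusted p = 0.825). Mmp12, macrophage elastase, had 43.9 ± 6.53 CPM in WT SFA, 91.6 ± 19.8 in WT n6 and 39.2 ± 14.1 in KO n6 (SD, n = 4; -0.16, interval -0.58 to 0.26). Itgb2 (-0.19), Itgam (-0.18), Gpr35 (-0.15) and Soat1, which esterifies cholesterol (-0.23), returned as well. Il7r (-0.15), of the T cell list, also returned, while the median of that list on the diet step was -0.65. Lyz2, lysozyme, was the marker that was lower in KO n6 (-0.45, adjusted p = 0.006). WT n6 replicate 4 had the lowest level of Itgax, Mmp12, Itgb2, Itgam, Gpr35 and Il7r in its group.

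Genes of class II antigen presentation and of the acute phase that were called were lower than in WT SFA. Of 10 class II antigen presentation genes 6 were lower (60%, against 16.7% of all tested genes) and none higher (against 15.9%). None lay inside 1.5-fold (against 71.9%), and the median was -0.59. Cd74, the invariant chain, had 689, 672, 576 and 642 CPM in WT SFA and 432, 468, 310.5 and 466 in KO n6, which do not overlap (-0.62, adjusted p = 0.000203), and H2-Ab1 (-0.69) and H2-DMb1 (-0.77) fell with it. WT SFA replicate 3 and KO n6 replicate 2, the libraries high in B cell markers, are 1 on each side. Without the 3 marker-high libraries 7 of the 10 were lower, against 1686 of 15534 tested genes. Of 17 tested acute-phase and cytokine genes 7 were lower (41.2%, against 16.7% of all tested genes) and none higher by TMM scaling. By RLE scaling 2 were higher, and 1 or 2 without some single libraries. Beside Saa3, haptoglobin (Hp) fell from 3841 ± 280.3 to 1746 ± 262 CPM (-1.14, adjusted p = 8.67e-08). The monocyte attractants Ccl2 (-0.82) and Ccl7 (-1.18) fell too, Ccl2 after a rise of 0.88 on the diet step, so it overshot.

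Secreted products of fat cells were more often lower than higher, at 8 and 2 of 17 (47.1% and 11.8%, against 16.7% and 15.9% of all tested genes). Lep, the leptin gene, had CPM of 4251, 3973, 4205 and 4110 in WT SFA, 5333, 5297, 5112 and 4807 in WT n6 and 2610, 2479, 2883 and 2613 in KO n6. All KO n6 libraries were below WT SFA and all WT n6 libraries above (-0.64, SE 0.077, adjusted p = 1.13e-06). Adipoq, the adiponectin gene, was lower inside 1.5-fold (-0.42, interval -0.58 to -0.25, adjusted p = 0.000318) and Sfrp5, a secreted Wnt inhibitor, lower at -0.82. Nrg4, a growth factor of the EGF family, returned, with means of 71.4 ± 4.51 CPM in WT SFA, 43.1 ± 5.46 in WT n6 and 67.3 ± 7.398 in KO n6 (-0.09, interval -0.29 to 0.12).

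Mitochondrial genes that were called were nearly all higher. Most of those in oxidative phosphorylation from the nucleus, the tricarboxylic acid cycle and beta-oxidation differed by small amounts. Over all tested genes 15.9% were higher, 16.7% lower and 71.9% inside 1.5-fold. Of 40 nuclear genes of oxidative phosphorylation 17 were higher and 1 lower, and all 40 lay inside 1.5-fold (median 0.13). On the diet step 39 of the 40 had fallen (median -0.28), against 13.1% of all tested genes. Of 22 tricarboxylic acid cycle genes 17 were higher, 1 lower and 18 inside 1.5-fold (median 0.22). The rises were led by Dlat of pyruvate dehydrogenase (0.64, adjusted p = 9.87e-09) and Pcx, pyruvate carboxylase (0.62). Of 26 beta-oxidation genes 15 were higher, none lower and 22 inside 1.5-fold (median 0.21), among them Hadha (0.49, adjusted p = 2.15e-07) and Cpt1b (0.77). Of the 13 genes encoded in mitochondrial DNA 10 were higher, none lower and only 5 inside 1.5-fold (38.5%; median 0.39). mt-Nd2 had 3647, 4432, 4496 and 4761 CPM in WT SFA and 7013, 6844, 7040 and 7472 in KO n6, without overlap (0.71, adjusted p = 7.06e-08). Of 20 thermogenic genes 10 were higher, 1 lower and only 7 inside 1.5-fold (35%; median 0.40, and 0.20 in TPM). But Ucp1, the uncoupling protein of brown fat, was under 1 CPM in each of the 8 libraries and was not called (0.27, SE 0.519, adjusted p = 0.727). Adrb3, the adrenergic receptor of fat cells, returned from a diet step of -0.97, with 184, 204, 176 and 221 CPM in WT SFA and 258, 297, 212 and 182 in KO n6 (0.27, interval 0.01 to 0.53). The 2 highest KO n6 libraries for Adrb3 are the 2 high in muscle or B cell markers, and without KO n6 replicate 4 the gene was called higher (0.38, adjusted p = 0.0191). Without the 3 marker-high libraries its difference was -0.04 (adjusted p = 0.849). Without those libraries, 11 oxidative phosphorylation genes, 11 of the tricarboxylic acid cycle, 13 of beta-oxidation, 8 encoded in mitochondrial DNA and 7 thermogenic ones were higher. In that fit 1527 of 15534 tested genes were higher.

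Clock genes were divided between some that kept the level of the n6 diet and some that returned. Of 16 clock genes 3 were higher (18.8%, near the 15.9% of all tested genes) and 6 lower (37.5%, against 16.7%), with a median of -0.13. Without the 3 marker-high libraries 3 of the 16 were lower, and 1686 of 15534 tested genes were. Dbp, a clock output factor, had CPM of 39.2, 42.1, 43.9 and 55.6 in WT SFA, 31.2, 20.1, 22.2 and 27.7 in WT n6, 45.9, 36.5, 63.01 and 64.8 in KO SFA and 28.1, 27.8, 26.1 and 25.8 in KO n6. Both n6 groups lay below WT SFA, with no called genotype step on n6 (-0.75, adjusted p = 0.00147; genotype 0.09, adjusted p = 0.689). Bhlhe41, a clock repressor, behaved alike (-0.59, adjusted p = 0.00179; genotype 0.18, adjusted p = 0.3), while Nr1d1, which encodes REV-ERB alpha (-0.13, interval -0.32 to 0.07), and Bhlhe40 (-0.13) returned. Hlf, a relative of Dbp, was lower at -0.95 with a diet step in wild type of -0.01. The labels give no time of collection.

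Proliferation genes rose on the diet step and fell on the genotype step on n6. Of 18 proliferation genes 15 rose on the diet step (median 0.52), where 11.6% of all tested genes did. From WT n6 to KO n6 16 fell, and so did 3365 of 15259 tested genes. In KO n6 against WT SFA none was higher (against 15.9% of all) and 1 lower (5.56%, against 16.7%), with a median of 0.01. The lower gene was Pcna at -0.21 (adjusted p = 0.00061). Top2a (0.24, interval -0.06 to 0.54) and Kif11 (0.16, interval -0.13 to 0.45) returned.

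Ribosomal protein genes were lower almost without exception, by a small amount. Of 28 tested 27 were lower (96.4%, against 16.7% of all tested genes) and none higher. All lay inside 1.5-fold (against 71.9%), with a median of -0.26. Rplp1 had 267, 272, 260.2 and 270.5 CPM in WT SFA and 201, 194, 188 and 198 in KO n6, which do not overlap (-0.45, SE 0.049, adjusted p = 3.08e-07). The diet step lowered 4 of the 28, and 13.1% of all tested genes. Matrix genes had 1 of 28 higher (3.57%, against 15.9% of all tested genes) and 11 lower (39.3%, against 16.7%), with a median of -0.20. Sparc, which binds collagen, fell by 0.42 (adjusted p = 2.19e-07) with a diet step of 0.00, and the member that rose was the metalloproteinase inhibitor Timp3 (0.51, adjusted p = 0.000121).

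Endothelial markers were higher in KO n6 than in WT SFA. Of 10 markers 9 were higher (90%, against 15.9% of all tested genes) and none lower, with a median of 0.58. Their mean log2 CPM ran from 6.3 to 6.64 in WT SFA and from 6.96 to 6.99 in KO n6. Kdr, a VEGF receptor, had CPM of 169.8, 136, 127 and 127 in WT SFA and 244, 238, 242 and 224 in KO n6 (0.76, SE 0.135, adjusted p = 0.0002), and Pecam1 (0.61) and Cdh5 (0.68) rose with it. Pecam1 was raised by both single changes, at 0.37 on the diet step (adjusted p = 0.016) and 0.33 on the genotype step on SFA (adjusted p = 0.0207), and Kdr was called on the second alone (0.27, adjusted p = 0.157, and 0.53, adjusted p = 0.00346). Without the 3 marker-high libraries 8 of the 10 were higher, against 1527 of 15534 tested genes. Of 12 skeletal muscle markers 10 were higher (83.3%, against 15.9% of all tested genes) and none lower. But summed marker CPM ran from 17.89 to 375.9 in KO n6 and from 37.2 to 61.44 in WT SFA. Without KO n6 replicate 1 alone, or all 3 marker-high libraries, none was higher and 1 lower. Of 7 Schwann cell markers 4 were higher (57.1%, against 15.9% of all tested genes), with mean log2 CPM of 2.09 to 2.53 in WT SFA and 2.81 to 3 in KO n6. Of 19 interferon response genes 5 were higher (26.3%, against the same 15.9%). Without the 3 marker-high libraries none of these Schwann cell markers and 1 of these interferon genes was higher. The interferon count ran from 1 without KO n6 replicate 1 or 2 to 10 without KO n6 replicate 3, and was 2 or 3 without any other library of the 2 groups. The Schwann cell count was 2 without WT SFA replicate 2 or 3 or KO n6 replicate 1. The part of these cell types in the other results was not tested.

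Few genes departed from the sum of the 2 single changes beyond the threshold, which does not show that the others equalled it. The difference of the genotype effect between n6 and SFA was called for 137 genes (0.898%), 71 upward and 66 downward. Lipogenesis held 6 of them among its 18 members, all upward, so that Scd1, at 0.92 on SFA and 1.72 on n6, rose more by genotype where n6 fat had lowered it (difference 0.80, adjusted p = 0.000531). Acss2 (0.93, adjusted p = 0.000122) and Insig1 (0.79, adjusted p = 0.00155) showed the same. Tlcd2 went the other way, raised 2.11 by genotype on SFA and 0.82 on n6 (difference -1.29, adjusted p = 0.000658), as did Map1a, a microtubule gene, at 0.98 and 0.08 (-0.90, adjusted p = 7.52e-05). Cholesterol genes such as Fdps (0.01, adjusted p = 0.98) and Lss (-0.02, adjusted p = 0.971) had differences near 0. This count moved with single libraries, from 48 without KO SFA replicate 1 to 345 without WT n6 replicate 4. It was 237 without KO SFA replicate 4, and 51 to 89 with any 1 of WT SFA replicates 2 to 4, KO n6 replicates 2 and 4, WT n6 replicates 1 to 3 or KO SFA replicate 2 left out.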

How the data were processed

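RNA-seq of iWAT was deposited for 24 libraries, 4 for each genotype and diet; the other 8 (n3 diet) entered the fit only to estimate spread. Per the labels' protocols, poly-A RNA was sequenced in paired ends. Per the submitters' processing notes, fastp 0.23.2 and Salmon were used with build mm10; the sources used here give no Salmon version or annotation. The deposited estimated counts per gene were rounded to whole numbers, and the deposited TPM (scaled by transcript length and depth by the authors) served as an alternative on a log2 scale.

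Genes passing filterByExpr (minimum count 10, total 15) held 99.98% of counts. They were scaled by TMM and fitted with edgeR 4.0.16 (R 4.3.3) by robust quasi-likelihood, 1 coefficient per group over all 24 libraries with 18 residual degrees of freedom. P-values were adjusted over 15259 genes. SE is the log2 fold change divided by the root of F. Genotype and diet come from the labels; the members and gene lists were chosen with earlier results of these data known. Lpcat3, Ucp1, Cfd and members of lipid synthesis lists could be named; other lists gave up to 4 members by smallest p and up to 2 inside 1.5-fold by largest diet change, and each class its 12 largest per direction. Alternatives were RLE scaling, DESeq2 1.42.0, limma 3.58.1 on TPM, no filter, fewer groups, a replicate block, other margins and left-out libraries. On simulated counts for this comparison (15259 genes), 30 of 34 genes changed 1.5-fold and 32 of 33 changed 2-fold were called. Of 15059 unchanged genes 6 were called, and 95 of 100 built to return were classed so. Changed genes were drawn from those over 1 CPM in WT SFA, and returning ones had 2-fold steps that cancel exactly. No outlying library was simulated, so smaller steps, lower counts and such libraries were not covered. Replicate numbers were not taken as pairs, since no contrast had every pair of deviations correlated over 0.1. Some genes of these lists are not reported here.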

Additional observations from a re-analysis of the deposited data

Results flagged for a closer look

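The genotype effect differed between diets by the test of the difference itself (edgeR quasi-likelihood, adjusted p in brackets; n6 minus SFA, log2) for these genes named above. In fatty acid and triglyceride synthesis it was larger on n6 for Acss2 by 0.93 (0.000122), Scd1 by 0.80 (0.000531), Slc25a1 by 0.57 (0.0192), Agpat2 by 0.53 (0.0214), Acacb by 0.47 (0.0493), Scd2 by 0.44 (0.0263) and Elovl6 by 0.41 (0.0379). The same direction was found for Insig1 at 0.79 (0.00155), the droplet gene Cidea at 1.5 (0.0185), Chchd10 at 0.85 (0.0196), H2-Q10 at 0.79 (0.0297), Nrg4 at 0.67 (0.024) and mt-Nd2 at 0.42 (0.0367). The difference was negative for Tlcd2 at -1.29 (0.000658), Map1a at -0.90 (7.52e-05), Fads2 at -0.68 (0.013), Lpgat1 at -0.55 (0.00528) and Pcna at -0.24 (0.0449).

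Single libraries lay far from the other 3 of their group for some genes, which chance does for about 1 in 20 groups. In WT SFA these were replicate 1 for Egln3 (1.92 CPM, others 2.93 to 3.07) and Timp3 (625 CPM, others 469 to 489). In KO n6 replicate 3 was high for Cfd (179 CPM, others 125 to 133), Cyp2f2 (1.29, others 0.722 to 0.817) and Pcx (1912, others 1739 to 1762). Also in KO n6, replicate 1 was low for Ebp (25.6, others 26.9 to 27.04), and replicate 4 high for Slc15a2 (20.7, others 13.2 to 13.9) and low for H2-Q10 (63.3, others 72.3 to 73.7).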

How the results depend on the processing

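With TMM scaling replaced by RLE, or fewer groups in the fit, no count of genes in KO n6 against WT SFA or in the return classes moved by over 1.5 times. With DESeq2 the departures from the sum numbered 415. Without the count filter 2 genes were partly returned. By limma on log2(TPM + 1) 1357 genes were higher, 106 differed at least 2-fold, 132 overshot and 271 departed from the sum; with a pseudocount of 0.1 these were 1341 higher, 265 returned, 365 returned through KO SFA and 58 through both routes; without a filter 1208 were higher, 103 differed 2-fold, 18493 lay inside 1.5-fold, 2 were partly returned and 124 overshot. A margin of 1.2-fold left 5893 genes inside it, with 9, 4 and 0 returned through WT n6, KO SFA and both, and one of 2-fold gave 279, 390 and 81. With steps of any size 2041 returned, 13 partly returned and 951 overshot, and 1772 and 844 returned through KO SFA and both. Without the 3 marker-high libraries 3213 genes were called (1527 higher, 1686 lower), 0 were partly returned, 102 returned through KO SFA, 6 through both, and 30 departed from the sum. Leaving out single libraries gave 86 to 217 returned, 1 to 10 partly returned, 19 to 48 returned through both routes and 48 to 345 departures. The causes were not tested.

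With a replicate block, 4911 genes were called, 4767 of them the same as without it, 122 returned (121 shared) and 161 departed from the sum. Deviations of same-numbered libraries correlated at -0.055 to 0.055 between KO n6 and WT SFA, -0.062 to 0.257 between KO n6 and KO SFA and -0.144 to -0.032 between KO n6 and WT n6; no contrast had every pair over 0.1, so the libraries are taken to share only a number; the block ended the calls of Axin2 (adjusted p = 0.054) and Lipe (0.0541) and of no other gene named. Over 115 named genes and 26 settings, 2922 values stayed called or stayed uncalled, 56 lost the call and 12 gained it. No gene called in the main fit changed direction. These counts do not check the direction of uncalled genes, among which Adrb3 changed sign (-0.04 without the 3 libraries). At 43.6 M counts or more a library, 2587 genes were neither called nor inside 1.5-fold, and for some called genes too the interval crossed that bound.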

Other observations

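Lists not described above gave these counts in KO n6 against WT SFA, where 15.9% of all tested genes were higher, 16.7% lower and 71.9% inside 1.5-fold; several are near those shares. Lipolysis genes had 4 of 13 higher and 2 lower, all inside 1.5-fold. Glycolysis genes had 7 of 20 higher and 2 lower, NADPH supply 6 of 10 higher and 1 lower, and fatty acid uptake 5 of 11 higher and 2 lower. Among PPARG and adipocyte identity regulators 2 of 16 were higher and 5 lower (1 and 2 without the 3 marker-high libraries), and among 20 genes of the unfolded protein response 1 was higher and 7 lower. Oxidative stress genes were split, with 5 of 18 higher and 5 lower (1 and 5 without those libraries), and of 19 immediate early genes 1 was higher and 5 lower. Of 8 tested neutrophil and erythroid markers 6 were higher and 1 lower (1 and 1 without those libraries). Of 10 stromal progenitor markers 1 was higher and 3 lower, and none of 10 mammary and skin gland epithelium markers was called. Of 10 T cell markers 1 was higher, none was lower and 1 lay inside 1.5-fold.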
